A study of Mus musculus with 9 samples.

Results

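A set of 10 genes known as markers of the liver's resident macrophages, the Kupffer cells, was followed in the livers of 9 mice. They were Clec4f, Timd4, Vsig4, Marco, Cd5l, Adgre1, Csf1r, C1qa, C1qb and Cd163, a list set by name with earlier results of these data known. Array probes were assigned to them through the RefSeq transcript named for each probe, which gave 13 probes for the 10 genes, of 20972 named genes and 55681 probes on the array. Csf1r had 3 probes, Adgre1 had 2 and the other genes had 1 each, and all 13 probes were bright enough to be tested. The mice were males of the C57B/6 J strain aged 20 weeks, in 3 groups of 3, and each mouse gave 1 array of total RNA from snap-frozen liver. STAM mice, which develop diabetes, steatohepatitis and later liver tumours, had received a low dose of streptozotocin shortly after birth and High Fat Diet 32 after weaning, which the STAM-NON and STAM-INS groups share. STAM-NON mice received no glucose-lowering treatment, STAM-INS mice received insulin glargine under the skin with a dose set by their blood glucose, and Normal mice received neither streptozotocin nor high-fat diet and ate CE-2 chow. A difference between a STAM group and Normal therefore holds streptozotocin and diet together, and whether a piece of STAM liver contained tumour is not given in the sources used here.

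Kupffer cells sit inside the liver sinusoids, where they take up bacteria, dying cells, old red cells and lipoproteins from portal blood. They are seeded before birth, live on signals through the receptor Csf1r and renew themselves locally, and in steatohepatitis some of them die and are replaced by macrophages that come from blood monocytes. In the mouse, Clec4f is found almost solely on Kupffer cells and Timd4 marks those of embryonic origin. Adgre1, Csf1r and the C1q chains are made by macrophages of many kinds. The origin of the cells behind the Clec4f signal was not tested. In RNA from whole liver, more cells of a type and more RNA per cell cannot be told apart.

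Promoter windows of 7 of the 10 genes were taken from a RefSeq table (assembly GRCm38.p6). Each window holds 250 bases before the transcript start and 50 bases from it. Adgre1 and C1qa have no window in that table, and the window of Csf1r was left out of the search and of the counts for the markers. The windows were searched on both strands for GAGGAA, a core of sites of the macrophage factor PU.1, for TGCTGAC, a half-site of MAF factors, for the liver X receptor element DR4 (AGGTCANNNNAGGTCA) and for the E-box CACGTG; none of these letter strings contains another. GAGGAA was in 4 of the 7 windows (Vsig4, Marco, Cd5l and C1qb) and in 28.3% of all 32851 windows of that length. TGCTGAC was in 1 of 7 (Timd4, 45 bases before the start) and in 4.67% of all windows, and neither DR4 nor the E-box was in any of the 7, against 0.0152% and 7.15% of all windows. The bases before the start are shown for Clec4f and Cd5l, the 2 genes that passed the test below, and for Vsig4 and Marco, which have GAGGAA in the same window. They run 5′ to 3′ along the gene's own strand, and capitals mark GAGGAA or its reverse complement TTCCTC.
Clec4f, chr6:83656117-83656366, minus strand: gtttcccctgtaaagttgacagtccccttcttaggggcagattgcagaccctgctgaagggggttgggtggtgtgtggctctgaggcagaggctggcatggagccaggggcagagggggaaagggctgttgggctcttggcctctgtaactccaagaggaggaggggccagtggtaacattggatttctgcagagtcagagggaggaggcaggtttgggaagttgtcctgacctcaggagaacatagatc
Cd5l, chr3:87357631-87357880, plus strand: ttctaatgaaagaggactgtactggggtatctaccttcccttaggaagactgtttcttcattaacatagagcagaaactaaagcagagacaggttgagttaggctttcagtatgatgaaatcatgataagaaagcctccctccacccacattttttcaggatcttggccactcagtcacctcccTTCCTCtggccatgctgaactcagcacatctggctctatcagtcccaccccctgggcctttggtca
Vsig4, chrX:96293439-96293688, minus strand: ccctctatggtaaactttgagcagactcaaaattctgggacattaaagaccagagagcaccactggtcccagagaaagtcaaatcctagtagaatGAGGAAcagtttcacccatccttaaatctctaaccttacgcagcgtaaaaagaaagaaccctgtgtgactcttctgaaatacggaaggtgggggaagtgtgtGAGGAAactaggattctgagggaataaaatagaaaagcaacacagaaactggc
Marco, chr1:120505025-120505274, minus strand: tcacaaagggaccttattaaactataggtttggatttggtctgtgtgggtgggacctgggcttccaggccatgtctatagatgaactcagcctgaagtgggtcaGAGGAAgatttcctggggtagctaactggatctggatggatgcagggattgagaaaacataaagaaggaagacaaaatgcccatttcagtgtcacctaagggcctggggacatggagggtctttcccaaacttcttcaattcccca
In Vsig4 the matches began 155 and 53 bases before the start, in Marco 146 and in Cd5l 66, and in C1qb, not shown, 30. Clec4f had no match in its window. A match describes letters in the window and is not evidence that a factor binds there.

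Values below are centred log2 signals, the background-subtracted signal as log2 with the array's own 75th percentile taken off, so that a probe at that percentile has the value 0 and a difference of 1 is a 2-fold change. Levels of different probes are not compared. The share of spots well above background was between 46.2% and 65.0% per array, and arrays of 1 group correlated with r of at least 0.979, taken across tested probes, which are not independent replicates. All STAM arrays lay on 1 slide and all Normal arrays on another, so that slide and group cannot be told apart in a comparison with Normal. The 8 markers of hepatocytes, the main cells of the labelled tissue, were well above background on all arrays. All 10 Kupffer cell markers were well above background on every array, except Cd163 on STAM-INS replicate 1. Their summed signal, over the 75th percentile, was 104 to 157 in Normal, 209 to 372 in STAM-NON and 173 to 418 in STAM-INS.

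The secreted protein Cd5l and the lectin Clec4f were higher in STAM-NON than in Normal livers, 2.52-fold and 1.96-fold. The other 8 markers had positive differences that did not pass the test, so the mean of STAM-NON lay above that of Normal for all 10 genes, with a median difference of 1.0 on the log2 scale against -0.13 over all 26277 tested probes. By limma with the Benjamini-Hochberg method over these probes, 2 of the 10 rose, Cd5l and Clec4f, beside 6.3% of all tested probes called higher and 16.1% called in either direction. At an unadjusted p under 0.05, 8 of the 10 were higher, beside 12.5% of all tested probes. In 7 of the 10 every STAM-NON mouse lay above every Normal mouse, which held for 13.2% of all tested probes. For Csf1r and Adgre1, which are among the 7, it held for the brightest probe only. The sign of these differences was positive for all 10 genes under each of the other scalings of the arrays that were tried, in which the median of all tested probes moved between -0.30 and 0.18.

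**Figure D1:**
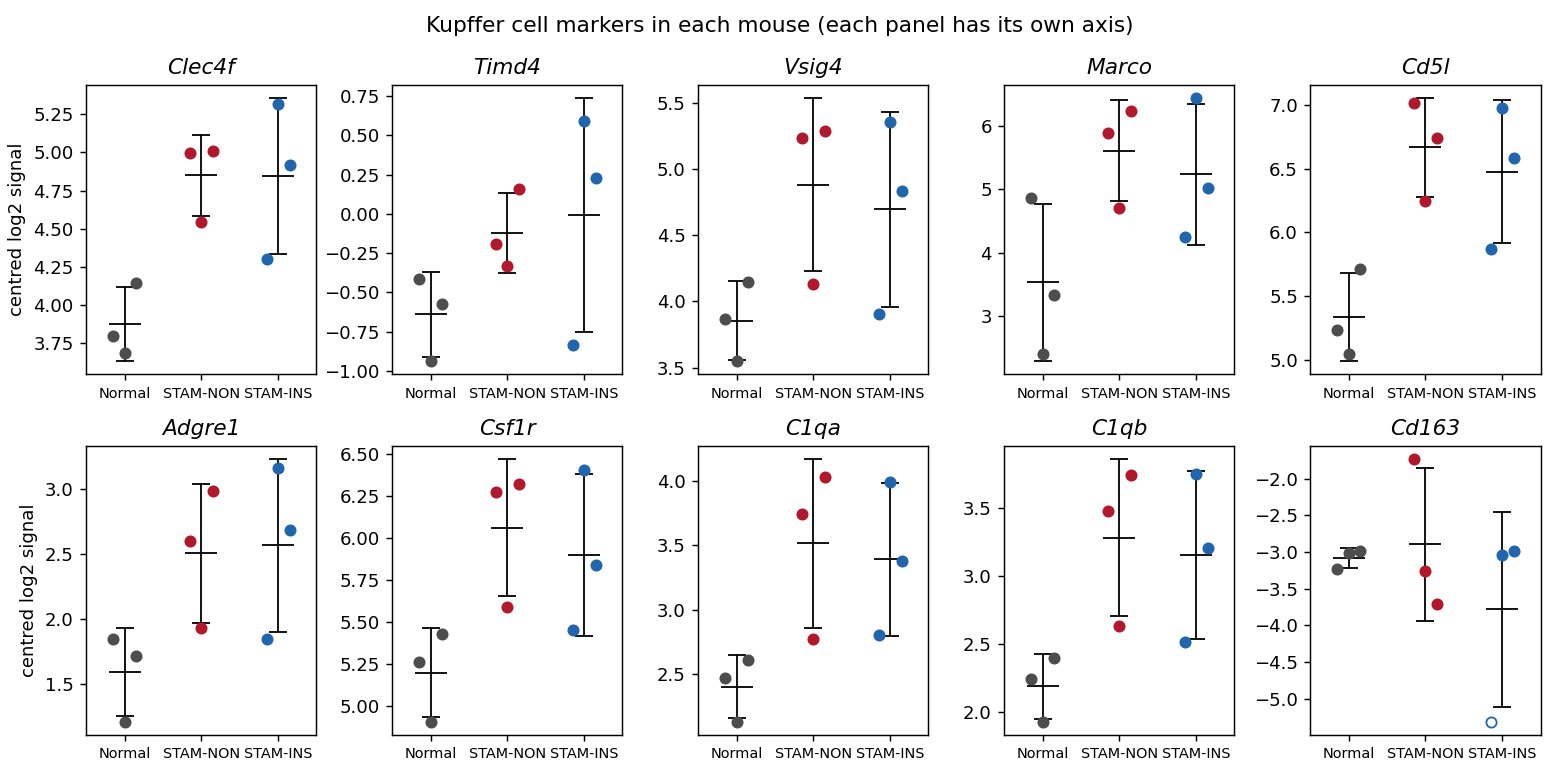
Centred log2 signal (vertical axis, each panel with its own range) of the 10 Kupffer cell markers in the 3 mice of each group, with points for mice and bars for the mean and SD (n = 3); the open point marks Cd163 on STAM-INS replicate 1, not well above background. In the Clec4f panel the Normal mice lie between 3.68 and 4.15 and all STAM mice above them, between 4.30 and 5.32.

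Clec4f, a galactose-binding C-type lectin found almost solely on Kupffer cells, had signals of 3.80, 3.68 and 4.15 in Normal, 4.99, 4.54 and 5.01 in STAM-NON and 4.30, 5.32 and 4.92 in STAM-INS (replicates 1, 2 and 3 in this order throughout). All 6 STAM mice were above all Normal mice, and the 2 STAM groups overlapped. The rise in STAM-NON was 0.97 (SE 0.26, limma adjusted p 0.0420). Timd4, a phosphatidylserine receptor for dying cells that marks Kupffer cells of embryonic origin, had signals of -0.41, -0.94 and -0.57 in Normal, -0.19, -0.33 and 0.16 in STAM-NON and -0.84, 0.59 and 0.23 in STAM-INS. Every STAM-NON mouse was above every Normal mouse by a small margin, while STAM-INS replicate 1 lay among the Normal mice. The difference of STAM-NON from Normal was 0.52 (95% interval -0.26 to 1.30, limma adjusted p 0.302), and Timd4 did not pass.

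The scavenger receptors Marco and Cd163 had the largest SDs of the 10 genes within the STAM groups. Marco, a class A scavenger receptor that binds bacteria and particles, had signals of 4.86, 2.41 and 3.34 in Normal, 5.88, 4.71 and 6.23 in STAM-NON and 4.24, 6.43 and 5.02 in STAM-INS. Normal replicate 1 stood above STAM-NON replicate 2 and STAM-INS replicate 1, so that the groups overlapped. Marco had the largest mean difference between STAM-NON and Normal of the 10 genes, 2.07, but with an SE of 0.74 it did not pass (limma adjusted p 0.0865). Cd163, the receptor for haemoglobin bound to haptoglobin, was dim, with signals of -3.23, -3.02 and -2.99 in Normal, -1.73, -3.25 and -3.71 in STAM-NON and -5.31, -3.04 and -2.98 in STAM-INS. STAM-NON replicate 1 was the highest mouse, STAM-INS replicate 1 the lowest, and the other 7 lay between -3.71 and -2.98. The difference was 0.18 (95% interval -1.37 to 1.74, limma adjusted p 0.864), and without STAM-NON replicate 1 it was -0.40, the opposite direction.

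Cd5l, also called AIM, is a protein that Kupffer cells and other tissue macrophages secrete into the blood. Its signals were 5.24, 5.05 and 5.72 in Normal, 7.01, 6.25 and 6.74 in STAM-NON and 5.87, 6.98 and 6.59 in STAM-INS. All STAM mice were above all Normal mice, with STAM-INS replicate 1 closest to them. Cd5l rose by 1.33 in STAM-NON (SE 0.32, 2.52-fold, limma adjusted p 0.0294).

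Of the complement genes, C1qa and C1qb code for chains of C1q, the recognition molecule of the classical pathway, and Vsig4 (CRIg) is a receptor for C3 fragments on bacteria. C1qa had signals of 2.47, 2.13 and 2.61 in Normal, 3.74, 2.77 and 4.03 in STAM-NON and 2.80, 3.99 and 3.38 in STAM-INS. C1qb followed it closely, with 2.24, 1.93 and 2.39 in Normal, 3.47, 2.63 and 3.74 in STAM-NON and 2.51, 3.75 and 3.20 in STAM-INS. In both, all 6 STAM mice were above all Normal mice. The differences of STAM-NON from Normal were 1.11 (SE 0.38) for C1qa and 1.1 (SE 0.36) for C1qb, with limma adjusted p of 0.0756 and 0.0706, so neither passed. Vsig4 had signals of 3.87, 3.55 and 4.15 in Normal, 5.23, 4.13 and 5.28 in STAM-NON and 3.90, 5.36 and 4.83 in STAM-INS. STAM-NON replicate 2 and STAM-INS replicate 1 lay within the range of the Normal mice. Its difference was 1.03 (SE 0.42, limma adjusted p 0.119), which did not pass.

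Csf1r is the receptor for the growth factors Csf1 and Il34, and Adgre1 codes for F4/80, the adhesion receptor by which mouse macrophages are commonly stained. The brightest Csf1r probe had signals of 5.26, 4.91 and 5.43 in Normal, 6.28, 5.59 and 6.33 in STAM-NON and 5.45, 6.41 and 5.84 in STAM-INS, with all STAM mice above all Normal mice. The difference of STAM-NON from Normal was 0.86 (SE 0.29, limma adjusted p 0.0719). The other Csf1r probes disagreed with each other. One was higher in STAM-NON by 0.96 and the other was lower, at -0.38, with signals of 1.40, 1.37 and 1.45 in Normal against 0.81, 1.29 and 0.98 in STAM-NON. No Csf1r probe passed (limma adjusted p of 0.108 and 0.140 for these others). The brighter Adgre1 probe had signals of 1.85, 1.21 and 1.71 in Normal, 2.60, 1.93 and 2.99 in STAM-NON and 1.85, 3.17 and 2.69 in STAM-INS, and STAM-INS replicate 1 was above Normal replicate 1 by less than 0.01. Its difference between STAM-NON and Normal was 0.92 and that of the dimmer probe 0.94, with limma adjusted p of 0.121 and 0.128, so that Adgre1 did not pass. On the dimmer probe the STAM-NON and Normal mice overlapped.

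**Figure D2:**
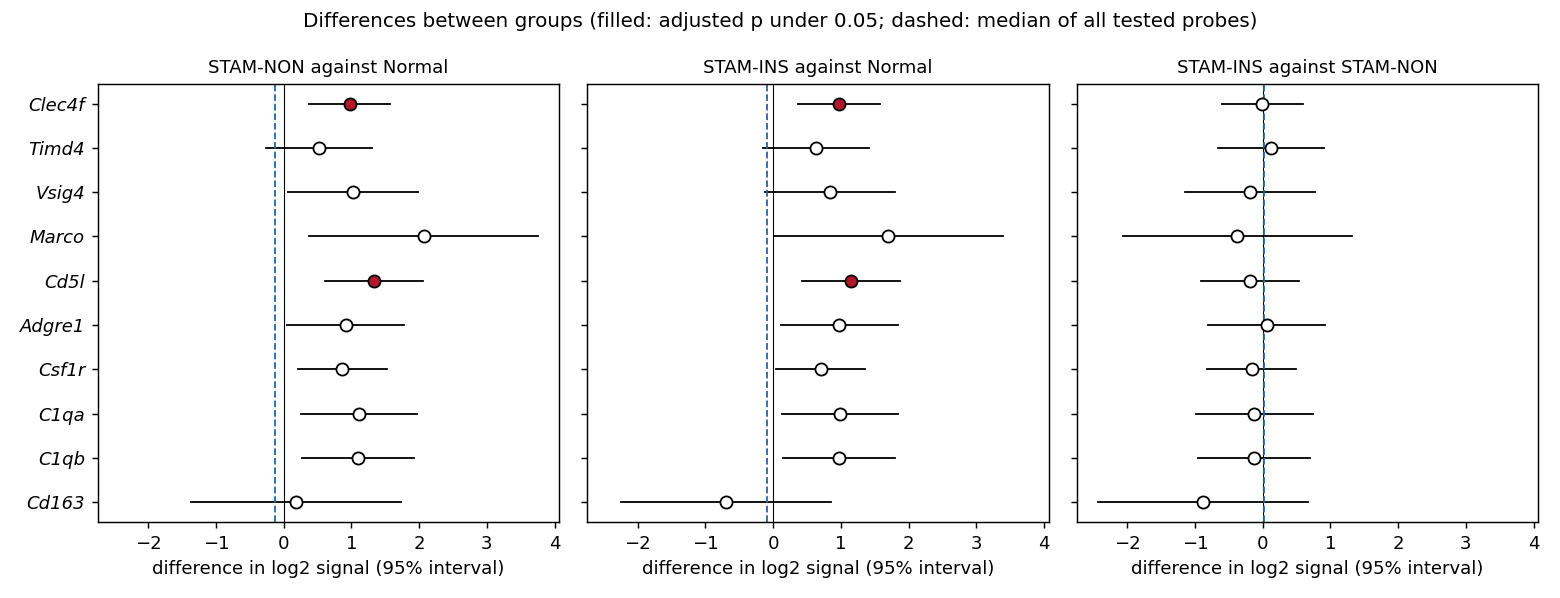
Difference in centred log2 signal (horizontal axis, with 95% intervals from limma) of the 10 Kupffer cell markers in each comparison of 2 groups; filled points passed the adjusted p of 0.05 and the dashed line is the median of all tested probes. Cd5l and Clec4f are filled in both comparisons with Normal, and no gene is filled for STAM-INS against STAM-NON, where all intervals include 0.

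The 2 calls were close to the threshold. The limma adjusted p of Cd5l was 0.0857 without STAM-NON replicate 1, 0.0747 without STAM-NON replicate 3, and 0.0857, 0.0893 and 0.0561 without Normal replicates 1, 2 and 3. That of Clec4f was 0.111 and 0.107 without STAM-NON replicates 1 and 3, 0.0653 without STAM-INS replicate 3, and 0.112, 0.115 and 0.0732 without Normal replicates 1, 2 and 3. STAM-NON replicate 2 was the lowest of its group for 9 of the 10 genes, beside 23.8% of all tested probes. Without that mouse 5 genes passed, with Csf1r, C1qa and C1qb added, beside 18.7% of all probes tested then in either direction. At an adjusted p under 0.1, 6 of the 10 passed, beside 28.7% of all tested probes in either direction.

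Insulin treatment was compared with no treatment to see whether marker RNA differed between the STAM groups. It did not differ beyond the spread between mice. None of the 10 genes passed by limma, beside 0.0913% of all tested probes, and none had an unadjusted p under 0.05, beside 8.78%. The mean of STAM-INS was lower for 8 genes and higher for 2, Timd4 and Adgre1, with a median difference of -0.15 against 0.03 over all tested probes. The differences ran from -0.88 for Cd163 to 0.12 for Timd4, with limma adjusted p between 0.756 and 0.997. For Clec4f the STAM-INS mean was 4.84 ± 0.51 and the STAM-NON mean 4.85 ± 0.26 (SD, n = 3), and the 95% interval of the difference was -0.61 to 0.60. For Cd5l it was -0.91 to 0.54, for C1qa -0.98 to 0.74 and for Marco -2.06 to 1.32. With intervals of this width, the test does not show that the STAM groups were alike.

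Cd5l and Clec4f were also higher in STAM-INS than in Normal livers, 2.21-fold and 1.96-fold. These values share the Normal mice with the comparison above and are not independent of it. Here 9 of the 10 genes were higher, with a median difference of 0.97 against -0.09 over all tested probes. By limma 2 rose, Cd5l by 1.14 (SE 0.32, adjusted p 0.0476) and Clec4f by 0.97 (SE 0.26, adjusted p 0.0454), beside 5.16% of all tested probes called higher and 13.9% in either direction. In 6 of the 10 every STAM-INS mouse lay above every Normal mouse (Csf1r by its brightest probe only), beside 15.1% of all tested probes. The differences of the genes that did not pass were 1.70 for Marco, 0.99 for C1qa, 0.98 for Adgre1, 0.97 for C1qb, 0.84 for Vsig4, 0.70 for Csf1r, 0.63 for Timd4 and -0.70 for Cd163, the last with 1 STAM-INS array not well above background. Both calls were lost when any mouse other than STAM-INS replicate 1 was left out, STAM-NON mice included. In these runs the limma adjusted p was between 0.0524 and 0.138 for Clec4f and between 0.0520 and 0.153 for Cd5l. All groups shared 1 estimate of the spread, and leaving out a mouse can also change which probes are tested. The part of each was not tested. Without STAM-INS replicate 1, Timd4 passed as well, with a difference of 1.05 (limma adjusted p 0.0346), which made 3 genes, beside 8.33% of all probes tested then in either direction.

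By their means, 7 genes were ordered STAM-NON, STAM-INS and Normal from high to low. Adgre1 and Timd4 were ordered STAM-INS, STAM-NON and Normal, and Cd163 STAM-NON, Normal and STAM-INS. In each of these orders the STAM groups did not differ beyond their spread, and only Clec4f and Cd5l separated either STAM group from Normal by the test.

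The markers were low or high together in single mice of a group. STAM-NON replicate 2 was below its group mean for all 10 genes, beside 36.1% of all tested probes. Its median deviation was -0.52, while the median over all tested probes on that array was 0.08. STAM-INS replicate 1 was the lowest of its group for all 10, which held for 33.4% of all tested probes, with a median deviation of -0.68 against 0.00 over all tested probes. STAM-INS replicate 2 was the highest of its group for 9 of the 10, beside 26.1% of all tested probes, and STAM-NON replicate 3 for 8 of the 10, beside 29.8%. Among Normal mice, replicate 2 was the lowest for 9 of the 10, beside 37.7%.

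**Figure D3:**
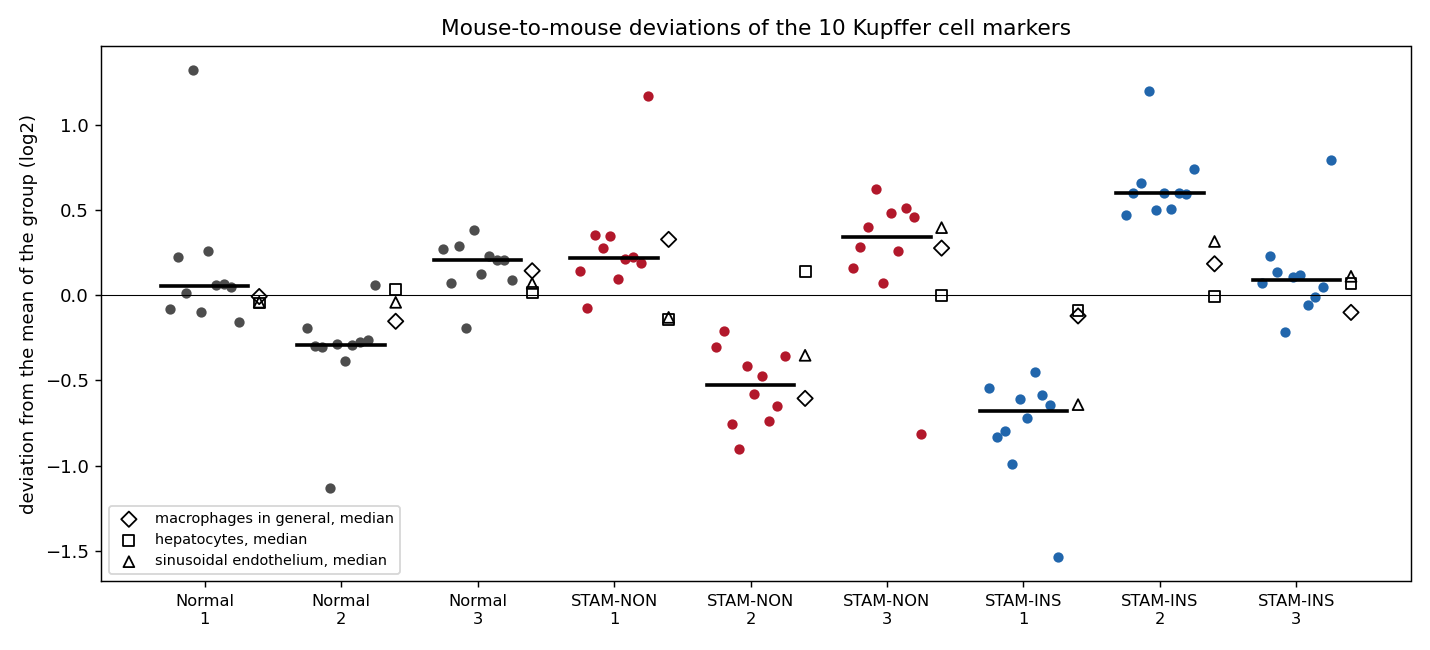
Deviation of each mouse from the mean of its group (vertical axis, log2) for the 10 Kupffer cell markers (points, with their median as a bar), beside the median deviation of genes of macrophages in general, hepatocytes and sinusoidal endothelium (open symbols). All 10 points lie below 0 for STAM-NON replicate 2 and for STAM-INS replicate 1, and above 0 for STAM-INS replicate 2.

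Markers of other cell types differed between the arrays with low marker signals. On STAM-NON replicate 2, 13 of 14 genes of macrophages in general were below their group mean (median -0.61), as were all 7 markers of stellate cells (median -0.60) and 6 of 8 of sinusoidal endothelium (median -0.35), while hepatocyte markers had a median of 0.14. All 8 genes of lipid-associated macrophages (median -0.89), all 5 of neutrophils (median -2.02) and 5 of 6 of monocytes (median -1.11) were below their group mean too. On STAM-INS replicate 1, all 8 markers of sinusoidal endothelium were below their group mean (median -0.64), as were all 3 erythroid genes (median -1.71), but genes of macrophages in general were near it (median -0.12), as were hepatocyte markers (median -0.09) and genes of lipid-associated macrophages (median 0.06). The share of spots well above background was 47.8% on the first of these arrays and 65.0% on the second, the highest of all. STAM-INS replicate 1 was also the only STAM-INS array in the slide row of the STAM-NON arrays. The other 2 were in the row with the same number as that of the Normal arrays, but on the other slide. The part of cell composition, array quality and slide row in these deviations was not tested. Within that first row, the median difference of the 10 genes between STAM-INS replicate 1 alone, the lowest of its group, and STAM-NON was -0.74. In the second row, STAM-INS replicates 2 and 3 against Normal gave 1.26 with 3 passing (Clec4f, Cd5l and Timd4), beside 8.21% of all tested probes in either direction. These arrays share a row number but lie on different slides, so slide and group cannot be told apart there either. No row held both STAM-NON and Normal, and the median of 2.03 that a row term gives for them, with none passing, rests on STAM-INS replicate 1.

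Of the ligands and binding partners of the markers, 8 were tested. Csf1, the main growth factor of macrophages, had a difference between STAM-NON and Normal of 0.34 (limma adjusted p 0.134), and Il34, its alternative, of 0.64 (limma adjusted p 0.0713). C1qc, which completes C1q together with C1qa and C1qb, rose by 1.1 in STAM-NON (limma adjusted p 0.0451), from 3.11 ± 0.20 to 4.20 ± 0.49 (SD, n = 3). The hepatocyte proteases C1ra and C1s1, which act directly after C1q, had differences of -0.70 (limma adjusted p 0.0523) and -0.25, and C3, the source of the fragments that Vsig4 binds, of -0.25. Hp (haptoglobin) and Hba-a1 (a haemoglobin chain), partners of Cd163, had differences of 0.10 and 1.09. None of these 7 partners other than C1qc passed. Plau was not tested, being well above background on 2 STAM-NON arrays and on none of the other groups. Of the 8 partners tested, C1qc was the 1 called, beside 16.1% of all tested probes in either direction, and the median was 0.22.

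Other genes that Kupffer cells express strongly did not share 1 direction. Of 10 such genes C1qc, counted above among the partners, rose and Hpgd, which inactivates prostaglandins, fell by 0.84 in STAM-NON (limma adjusted p 0.00818). Over all tested probes 6.3% were called higher and 9.76% lower, and the median of the 10 genes was 0.45. Of 9 transcription factors of Kupffer cell identity and macrophage fate tested, Irf8 rose by 0.96 (limma adjusted p 0.0317) and Rxra fell by 0.61 (limma adjusted p 0.0219), with a median of -0.05. Beside these, 16.1% of all tested probes were called in either direction. Spi1, which codes for PU.1, was well above background on 2 STAM-NON arrays, 2 STAM-INS arrays and no Normal array, and was not tested.

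Genes shared by macrophages of any origin, and those of macrophages that load lipid, made up most of the genes of other lists that passed. Of 14 tested genes of macrophages in general, 9 rose and none fell (median 1.16), beside 6.3% of all tested probes called higher and 9.76% lower. The largest differences were for the fractalkine receptor Cx3cr1 at 2.72, the integrin chain Itgax (CD11c) at 1.77, the lysosomal protein Laptm5 at 1.39 and the IgG receptor Fcgr1 at 1.33 (limma adjusted p of 0.0106 to 0.0348). Of 8 tested genes of lipid-associated macrophages, the Trem2-positive cells of fatty and injured tissue, 7 rose (median 2.09, or 2.04 with Gpnmb at its bound), beside the same 6.3%. The lipid receptor Trem2 rose by 2.93, the tetraspanin Cd63 by 2.84 and the galectin Lgals3 by 2.20 (limma adjusted p of 0.0122 to 0.0164), and Gpnmb, not well above background in the Normal mice, was at least 4.29-fold higher (mean of STAM-NON against the mean over the Normal arrays of the lowest signal well above background on each). Of 6 monocyte genes Plac8 rose by 1.38 and Vcan fell by 0.59, with a median of 1.51, beside 16.1% of all tested probes called in either direction. The summed signals were 44.2 to 55.3 in Normal, 68.2 to 122 in STAM-NON and 93.1 to 125 in STAM-INS for macrophages in general, and 25.2 to 29.5, 55.9 to 229 and 124 to 272 for lipid-associated macrophages. Neither sum overlapped between Normal and STAM mice, and that of the Kupffer cell markers did not either. Bright probes weigh most in such a sum. Among those of lipid-associated macrophages was Fabp5, 1.72 higher in STAM-INS than in STAM-NON (limma adjusted p 0.583). The median of the 8 genes in that comparison was -0.34, with 2 of the 8 positive, so the sums do not rank the STAM groups. The counts of genes that rose changed when single mice were left out, which leaves fewer arrays for every probe. They were lower without each Normal mouse and without STAM-NON replicates 1 and 3, and higher without STAM-NON replicate 2. The cause was not tested. The number of genes of macrophages in general that rose was 3 each time without Normal replicates 1, 2 and 3. It was 4 without STAM-NON replicates 1 and 3, and 11 without STAM-NON replicate 2, beside 18.7% of all probes tested then in either direction. Shares of all probes in the other runs are not given here. For lipid-associated macrophages it was 2, 2 and 3 without Normal replicates 1, 2 and 3, 4 without STAM-NON replicate 1 and 8 without STAM-NON replicate 2. The medians stayed between 0.94 and 1.5 and between 1.95 and 2.67. The part of these other macrophages in the levels of Adgre1, Csf1r and the C1q chains was not tested.

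**Figure D4:**
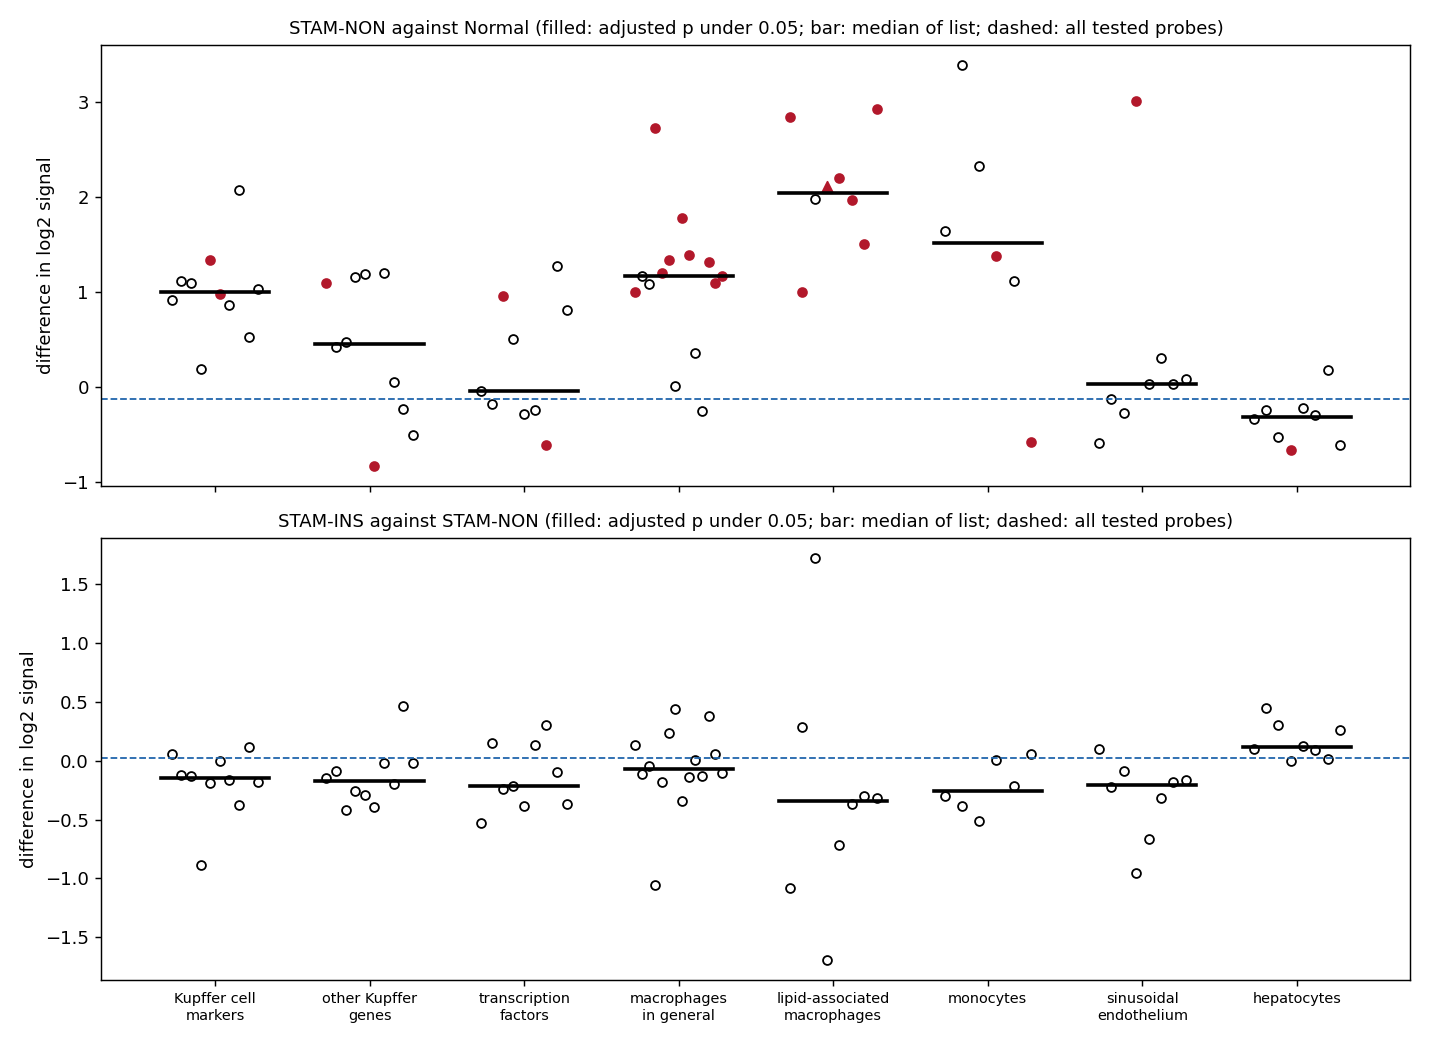
Difference in centred log2 signal (vertical axis) for each tested gene of 8 lists, in STAM-NON against Normal (upper panel) and STAM-INS against STAM-NON (lower panel); filled points passed, bars are list medians, the triangle is the bound for Gpnmb and the dashed line the median of all tested probes. In the upper panel the medians are 1.0 for the Kupffer cell markers, 1.16 for macrophages in general and 2.04 for lipid-associated macrophages, and in the lower panel no point is filled.

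Among markers of the other liver cells, the hyaluronan receptor Lyve1 rose by 3.01 (1 of 8 genes of sinusoidal endothelium, median 0.03) and Cps1, an enzyme of the urea cycle, fell by 0.67 (1 of 8 of hepatocytes, median -0.32). Of all tested probes, 6.3% were called higher and 9.76% lower. No gene passed in STAM-NON against Normal of 7 of stellate cells (median 0.51), 5 of neutrophils (median 3.09, or 2.13 with Mpo at its bound), 4 of T, NK and B cells (median -0.16), 3 of erythroid cells (median 1.09) and 5 of dendritic cells (median 0.77). The summed signal of hepatocyte markers was 5006 to 5307 in Normal, 3401 to 4447 in STAM-NON and 4200 to 4628 in STAM-INS. That of neutrophil markers was 7.91 to 8.68 in Normal, 10.6 to 28.4 in STAM-INS and 15.7, 9.67 and 196 in STAM-NON replicates 1, 2 and 3, so that replicate 3 stood apart. Without STAM-NON replicate 3 the median difference of neutrophil genes was 1.48, and without replicate 2 it was 4.10 with 3 genes passing. Their part in the differences of the Kupffer cell markers was not tested. The dendritic cell marker Xcr1 was not well above background on any array, and Cd68, Ly6c2, Ly6g and Hbb-bs had no named probe here. Between STAM-INS and STAM-NON no gene of any of these lists passed, beside 0.0913% of all tested probes. In STAM-INS against Normal, 6 of 14 genes of macrophages in general and 5 of 8 of lipid-associated macrophages rose, beside 5.16% of all tested probes called higher. Of the other lists Plac8 rose, with a difference of 1.39 (limma adjusted p 0.0268). Hpgd at -1.23, Cps1 at -0.67 and the neutrophil gene Elane at -0.59 fell (limma adjusted p of 0.00185, 0.0309 and 0.0179). Each was the 1 called gene of its list, and these lists did not all go the same way. The median was 2.31 for neutrophils (4 of 5 genes positive) and 1.37 for monocytes (5 of 6). It was 0.28 for other genes of Kupffer cells (7 of 10 positive) and -0.22 for hepatocytes (2 of 8). Calls in either direction made up 13.9% of all tested probes.

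The profiles most like those of the markers were searched among 12876 named genes with a tested probe, by the root mean square difference over the 9 arrays after each gene was set to 0 at its Normal mean. Nearest to Clec4f were Ptgs1 (0.11), Lgmn (0.13), P2ry13 (0.14), C1qc (0.15) and Cd300c2 (0.16). Nearest to C1qa were C1qc (0.097), Tyrobp (0.12), Ctss (0.13), Cd300c2 (0.15) and Itgb2 (0.16). Among the markers themselves the closest pair was C1qa and C1qb (0.048), followed by C1qb and Vsig4 (0.13). Cd163 was the farthest from the rest, its nearest marker being Timd4 at 1.03.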

How the data were processed

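Liver RNA was labelled with Cy3 and hybridised to 1-colour Agilent mouse arrays. The deposited files hold scanner output of Feature Extraction 11.5.1.1 per the file headers, namely the intensity of each spot after background subtraction on a linear scale, raw spot and background medians, and flags, not normalised between arrays. The design was built on mm9. Control spots and outlier spots (161 to 217 on each array) were dropped and replicate spots averaged, and no spot was saturated. Probes were named through accessions in a RefSeq table of GRCm38.p6 (27656 of 55681 probes), used for names and promoter sequence only.

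Values are log2 intensity minus each array's 75th percentile. Testing required that a share of 0.5 or more of a probe's spots exceeded background clearly, by the scanner's flag, on all 3 arrays of some group. The tests used lmFit and eBayes of limma 3.58.1 under R 4.3.3 (two-sided, all 9 arrays, Benjamini-Hochberg over 26277 probes, threshold 0.05). The methods name no normalisation for the arrays and no test for them in particular. Their general statistics name an unpaired two-tailed t test, tried as an alternative, or a Mann-Whitney U test. A gene's values are those of its brightest probe, and up to 4 called genes of each other list were named by size of difference, with all partners. The code was tested on simulated data. The number of arrays limits the precision; nothing in the sources pairs the mice. The markers and lists were chosen with earlier results of these data known, and the lists follow textbook knowledge of the cell types. The study's methods and the sample labels name different RNA kits.

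Alternatives covered the scaling (quantile, median, percentile over detected probes, E1A spike-ins), normexp background correction, the filter on dim probes, averaging of probes, the model (trend and robust, only the groups compared, the methods' t-test), slide row and replicate number as blocks, thresholds, and leaving out each array. Nothing in the sources says that replicate numbers pair mice.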

Additional observations from a re-analysis of the deposited data

How the results depend on the processing

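In STAM-NON against Normal, 2 genes passed. The number was 0 with arrays centred on the median, with no filter on dim probes, by the methods' t-test after Benjamini-Hochberg and with slide row as a block, and 4 with arrays centred on the E1A spike-ins and by the methods' t-test at an unadjusted p under 0.05. It was 6 at an adjusted p under 0.1, beside 28.7% of all tested probes in either direction, and 1 with over 2-fold change required. It ran from 0 to 5 when single mice were left out, with 5 without STAM-NON replicate 2, beside 18.7%. For the other settings, apart from the dropped filter, shares of all probes are not given here. Those counts therefore cannot be read as particular to the markers. With the filter dropped, 250 of 55655 probes passed in place of 4220 of 26277; the cause was not tested. In STAM-INS against Normal, the 2 genes became 0 with arrays centred on the median, with no filter, with only the arrays of these groups and by the methods' t-test after Benjamini-Hochberg, 1 with spike-ins or over 2-fold change required, and 0 to 3 when single mice were left out. In STAM-INS against STAM-NON the number was 0 under all alternatives run.

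The replicate number as a block gave 0 genes in each comparison. Deviations of same-numbered mice correlated between -0.29 and 0.15, which gives no sign of pairs but cannot exclude them. With the replicate number as a block, the limma adjusted p of Cd5l and Clec4f was 0.0619 and 0.0745 in STAM-NON and 0.0882 and 0.0797 in STAM-INS against Normal. Slide as a block could not be fitted against Normal, and slide as a random block was not run, since each slide holds whole groups.

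Of the other named genes that passed in STAM-NON against Normal, none changed sign under any alternative, and of those named, Hpgd, Laptm5 and Trem2 passed without each single mouse. With other scalings the list medians of that comparison changed sign for transcription factors (-0.21 to 0.27), sinusoidal endothelium (-0.14 to 0.34) and T, NK and B cells (-0.32 to 0.16). In it no gene of macrophages in general or lipid-associated macrophages passed without the filter, with slide row as a block or by the methods' t-test after Benjamini-Hochberg. In STAM-INS against Normal, 4 genes of lipid-associated macrophages passed with slide row as a block, beside 8.21% of all tested probes in either direction. By that t-test 5 passed and without the filter 0, with the shares of all probes not given here. At least 1 gene of macrophages in general passed there under every alternative.

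Small differences between the STAM groups changed sign. When single mice were left out they ran from -0.24 to 0.27 for Clec4f, -0.18 to 0.53 for Timd4, -0.56 to 0.21 for Vsig4, -0.97 to 0.12 for Marco, -0.44 to 0.12 for Cd5l, -0.24 to 0.42 for Adgre1, -0.42 to 0.060 for Csf1r, -0.49 to 0.17 for C1qa and -0.45 to 0.19 for C1qb. Clec4f became 0.0038 with normexp. With spike-ins Timd4 became -0.035 and Adgre1 -0.089, and with slide row as a block -0.72 and -0.66. Cd163 ran from -0.40 to 0.59 in STAM-NON against Normal and from -1.10 to 0.068 in STAM-INS against Normal without single mice, and was 0.068 there with slide row as a block. The cause was not tested.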
